A study of Rattus norvegicus with 80 samples.

Results

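In cultured rat mammary fibroblasts, 150 genes had their wildtype level between those of the mutated lines: IFPS lay on one side of wildtype and both IF and PS lay on the other. Of these genes 142 were highest in IFPS and lowest in IF and PS, and 8 had the reverse order. They were selected on these measurements, from 11298 genes with a mean of at least 2 CPM, the count of a gene scaled to a common library total, in the 12 fibroblast libraries and 32883 Ensembl identifiers in all. A gene was selected when no wildtype fibroblast library overlapped the 3 IFPS libraries on one side or the 6 IF and PS libraries on the other, when the IFPS mean and the mean of IF and PS were at least 2-fold apart, and when the 6 IF and PS libraries of mammary epithelial cells (MECs) overlapped the 6 wildtype and IFPS libraries. The fibroblast levels and the contrasts between fibroblast lines below are therefore descriptions of what the selection used. Calls given for them are not read as tests.

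Rats of 3 lines mutated in Nf1 were compared with wildtype rats by RNA sequencing in 80 libraries. The mutated lines are called IF, PS and IFPS in the labels, which give no allele behind these names. Fibroblasts, MECs and adipocytes had 3 libraries each of wildtype, IFPS, IF and PS, whole mammary pads had 6 of wildtype, IFPS and PS and 3 of IF, and tumors, which came from the mutated lines, had 9 of IFPS, 9 of PS and 5 of IF. The fibroblasts and MECs had been plated in culture and were lysed close to confluency, although the design text calls the normal cell types flow sorted, whereas RNA of adipocytes, pads and tumors came without a culture step that the labels mention. No age, treatment or sex is given, and the labels do not say whether libraries of a group came from separate animals, so the p-values measure only the spread between these libraries, which may be technical.

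Nf1 encodes neurofibromin, a protein that speeds the hydrolysis of GTP by Ras and so lowers Ras signaling. Fibroblasts of the mammary gland make the collagen-rich stroma around the ducts and signal to the epithelium, and MECs line the ducts. Reduced neurofibromin is known for raising signaling through the MAPK cascade in many cell types.

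The deposited table gives Ensembl identifiers without symbols, and none of them could be matched to a symbol here. The biological roles of the 150 genes, the level of Nf1 and the defining markers of the labelled cell types were therefore not analysed, and no sequence or position is given. Of the members 4 are followed by identifier: in each direction the gene with the largest fold between IFPS and the mean of IF and PS, and the gene with the highest mean CPM. Whether counting used strand is not given in the sources used here, so a gene that overlaps another or an antisense gene is uncertain. Libraries held between 17.3e6 and 37.3e6 counts, with a median of 26.3e6, and PS fibroblasts were the deepest fibroblasts at 34.6e6 to 37.3e6.

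The order with IFPS highest, wildtype between and IF and PS lowest, without overlap and with 2-fold means, was met by 146 of 11298 genes, 1.29%. The reverse order was met by 8 genes, 0.0708%. The condition on MECs then removed 4 genes of the first kind and none of the second. Without the 2-fold condition the first order held for 413 genes and the second for 53. The 4 other orders without overlap were rare: wildtype was highest with IFPS in the middle in 16 genes, wildtype was lowest with IFPS in the middle in 11, and the 2 orders with IF and PS in the middle occurred in 0 genes. Just inside the 2-fold limit lay genes at 2.01-fold and 2.02-fold, and just outside lay genes at 1.99-fold and 1.98-fold, among those highest in IFPS. For the reverse order the nearest were 2.11-fold and 2.30-fold inside and 1.94-fold and 1.83-fold outside.

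The 142 genes highest in IFPS were 2.01 to 5.38 times as high in IFPS as in IF and PS, with a median of 3.17. Their mean level over fibroblasts ran from 2.08 to 87.5 CPM with a median of 11.8 CPM, so the set holds genes of low to moderate abundance. IFPS exceeded wildtype by a median ratio of 1.72, with a range of 1.26 to 2.09. Wildtype exceeded IF and PS by a median ratio of 1.82, with a range of 1.32 to 2.85. The 2 medians were of similar size. The rule required wildtype to lie clear of both sides, so a step on each side follows from the selection.

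Summed over the 142 genes, wildtype fibroblasts held 2006, 2186 and 3226 CPM in replicates 1, 2 and 3. IFPS fibroblasts held 4317, 4398 and 3647 CPM. IF fibroblasts held 1497, 1613 and 1275 CPM, and PS fibroblasts held 1431, 1271 and 1415 CPM. IF and PS overlapped with each other, and wildtype replicate 3 lay nearest to IFPS. The sum of the 8 reverse genes was 248.7, 269.5 and 219.1 CPM in wildtype, 162.2, 154.9 and 176.4 CPM in IFPS, 373.2, 347.1 and 392.5 CPM in IF, and 387.7, 462.9 and 408.8 CPM in PS. Again wildtype replicate 3 was the wildtype library nearest to IFPS. The 8 genes had 2.11-fold to 2.97-fold differences, and wildtype lay between 0.451 and 0.647 of the way from IF and PS to IFPS on the log2 scale.

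**Figure D1:**
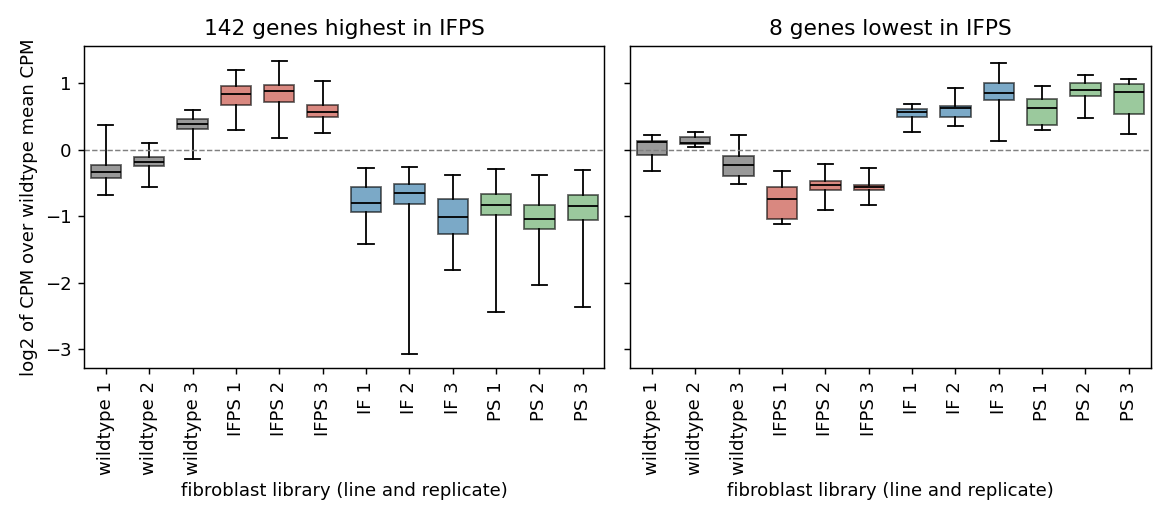
Level of each gene in each fibroblast library relative to its wildtype mean (log2, vertical axis), for the 142 genes highest in IFPS and the 8 genes lowest in IFPS; boxes give the quartiles and median, whiskers the full range, and the dashed line the wildtype mean. The medians of the 142 genes lie between 0.57 and 0.88 in IFPS and between -1.04 and -0.65 in IF and PS, and wildtype replicate 3 lies above the other wildtype libraries at 0.39.

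ENSRNOG00000028137 was the most abundant of the 142 genes. Wildtype fibroblasts held 72.6, 81.6 and 127.7 CPM, IFPS fibroblasts 170.3, 186.1 and 142.1 CPM, IF fibroblasts 46.5, 54.96 and 37.3 CPM, and PS fibroblasts 44.8, 39.4 and 46.4 CPM. IF and PS overlapped, and wildtype replicate 3 came close to the lowest IFPS library.

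ENSRNOG00000003741 had the largest fold of the 142, 5.38, at low counts. Its levels were 3.12, 2.28 and 4.09 CPM in wildtype, 6.89, 4.56 and 6.50 CPM in IFPS, 1.76, 0.376 and 0.903 CPM in IF and 0.578, 1.39 and 1.66 CPM in PS fibroblasts. The lowest IFPS library and the highest wildtype library were close to each other.

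ENSRNOG00000033527 was the most abundant of the 8 genes lowest in IFPS. It measured 57.6, 46.3 and 71.9 CPM in IFPS, 82.9, 94.3 and 83.2 CPM in wildtype, 130.6, 111.0 and 95.4 CPM in IF and 143.3, 189.3 and 164.9 CPM in PS fibroblasts. All 3 PS libraries lay above all 3 IF libraries for this gene. ENSRNOG00000002831 had the largest fold of the 8, 2.97. It measured 0.847, 1.31 and 0.979 CPM in IFPS, 1.40, 1.79 and 2.05 CPM in wildtype, 2.61, 3.32 and 2.61 CPM in IF and 3.18, 3.28 and 3.67 CPM in PS fibroblasts.

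The imbalance between 142 and 8 genes was larger than that of the 2-fold differences themselves. Of the expressed genes 425 were 2-fold higher in IFPS than in IF and PS and 220 were 2-fold lower. The wildtype mean lay between the mutated lines in 381 of the 425 (89.6%) and in 197 of the 220 (89.5%). Separation of single libraries differed more: wildtype stood apart from both sides in 146 of the 425 (34.4%) and in 8 of the 220 (3.64%). Wildtype overlapped both sides in 85 of the 425 (20.0%) and in 110 of the 220 (50.0%). On a log2 scale with 0 at the mean of IF and PS and 1 at the mean of IFPS, the wildtype position of the 425 genes had a median of 0.51 and quartiles of 0.41 and 0.59. The 220 genes had a median of 0.59 and wider quartiles of 0.40 and 0.79. Among the 142 selected genes the position ran from 0.391 to 0.677 with a median of 0.521.

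**Figure D2:**
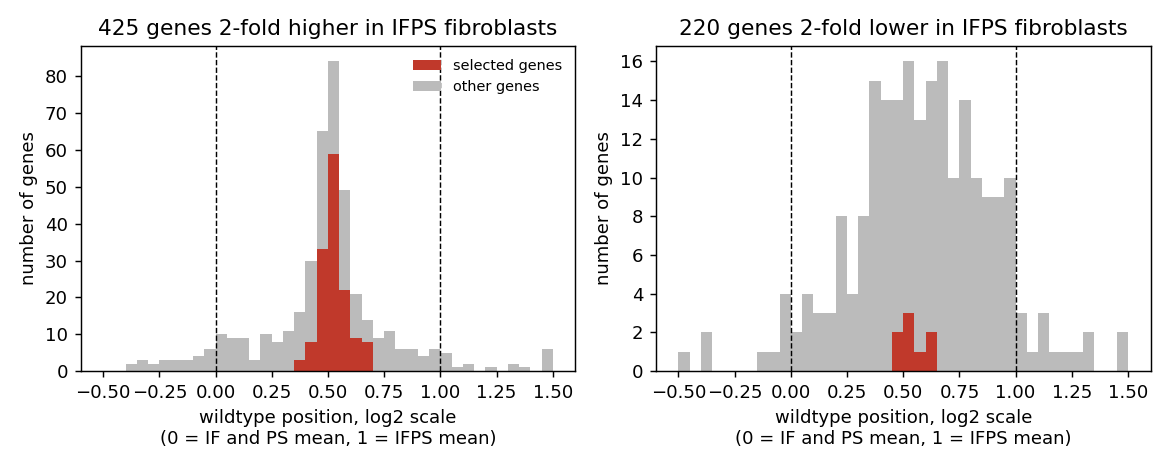
Position of the wildtype mean between the mean of IF and PS (0) and the mean of IFPS (1) on the log2 scale (horizontal axis) against the number of genes (vertical axis), for the 425 and 220 genes 2-fold apart in fibroblasts; selected genes are red, other genes grey, and positions beyond the axis are drawn in the end bins. The 425 genes peak around the middle, where the 142 selected genes lie, and the 220 genes are spread more widely.

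Wildtype replicate 3 stood apart from the other wildtype fibroblasts in the 142 genes. It was the highest wildtype fibroblast library for 138 of the 142 genes (97.2%), against 47.1% of all expressed genes. The lowest IFPS library exceeded it by a median ratio of 1.12, with a smallest ratio of 1.002, whereas it exceeded the higher of wildtype replicates 1 and 2 by a median ratio of 1.67. At the other side, the lowest wildtype library exceeded the highest IF or PS library by a median ratio of 1.17. Leaving out wildtype replicate 3 let 249 genes meet the rule, 202 highest and 47 lowest in IFPS, since fewer libraries had to be separated, and all 150 genes were among them. Of the 150 genes, 141 met the rule whichever 1 of the 12 fibroblast libraries was left out.

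In the fit of all fibroblast genes with edgeR's quasi-likelihood test, 5765 of 13879 genes (41.5%) differed between IFPS and the mean of IF and PS at an adjusted p under 0.05. All 150 selected genes were among them. The selection used the same contrast, and nothing is read from this count.

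The selection did not compare IF with PS, but it used the same libraries, so PS against IF is given as a description. None of the 150 genes passed edgeR's quasi-likelihood test, against 663 of 13879 genes (4.78%) in the same fit. At an unadjusted p under 0.05 there were 11 of the 150 (7.33%), against 21.8% of all genes tested, and DESeq2 called 4 of the 150 and 1295 genes in all at its adjusted threshold. The median log2 difference of the 142 genes was -0.07, against 0.00 over all genes tested, and PS was lower than IF in the mean of 104 of the 142 (73.2%, against 59.2% of expressed genes). Requiring that both lines lie clear of wildtype limits how far apart they can be. A low count therefore follows in part from the rule, and nothing is read from these counts. ENSRNOG00000033527, the followed gene nearest to the edgeR threshold, had a log2 difference of 0.60 ± 0.16 (SE).

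The 142 genes were more abundant in wildtype MECs than in wildtype fibroblasts. The rule did not compare these groups with each other, but it used the libraries of both. The values and calls of this contrast, here and for the single genes below, are therefore given as a description. The median level of the 142 genes was 11.9 CPM in wildtype fibroblasts and 30.2 CPM in wildtype MECs, and 141 of the 142 had a higher mean in MECs, against 68.2% of all expressed genes. With edgeR 136 of the 142 were lower in wildtype fibroblasts, and 0 were higher, where 30.4% of 14244 genes were lower and 29.2% higher. The median log2 difference of the 142 genes was -1.10, against -0.01 over all genes. Of the 8 reverse genes 4 were higher in fibroblasts and 0 lower. These tests, and those of single genes below, did not pair fibroblast and MEC libraries by the number in their titles. With that pairing, edgeR called 138 of the 142 lower and 1 higher, against 4438 lower and 4322 higher of 14652 genes.

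In single genes, wildtype MECs held 233.1, 224.3 and 256.2 CPM of ENSRNOG00000028137, all above the wildtype fibroblasts, and the log2 difference of fibroblasts from MECs was -0.997 ± 0.19 (SE) with an edgeR adjusted p of 0.00392. ENSRNOG00000003741 held 12.5, 12.3 and 11.5 CPM in wildtype MECs and was lower in fibroblasts by a log2 difference of -1.59 ± 0.20 (SE), adjusted p 0.000603. ENSRNOG00000002831 was higher in fibroblasts, with 1.12, 1.18 and 0.411 CPM in MECs and a log2 difference of 1.30 ± 0.40 (SE), adjusted p 0.0255. ENSRNOG00000033527 held 73.0, 62.9 and 100.8 CPM in wildtype MECs, a range that overlaps that of the fibroblasts. Its log2 difference was 0.49 ± 0.17 (SE) with an adjusted p of 0.0452, and 5 of 10 alternatives gave an adjusted p above the threshold, up to 0.126.

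Because the 142 genes were more abundant in MECs, identifiers specific to MECs were followed in the same fibroblasts. Chosen on the wildtype means (at least 20 CPM in MECs and at least 32-fold above fibroblasts and adipocytes), 107 identifiers qualified, and 1 of them is among the 142. Their summed level in fibroblasts was 138 to 224 CPM in wildtype, 274 to 553 CPM in IFPS, 187 to 214 CPM in IF and 136 to 230 CPM in PS. All 3 IFPS fibroblast libraries were thus above the other 9 for this sum. It includes the 1 gene selected as highest in IFPS, and the sum without that gene was not computed. The choice required low wildtype fibroblast means, so the wildtype side of this comparison follows in part from it. Relative to wildtype MECs this was 1.79% to 3.61% in IFPS and 0.885% to 1.5% in the other fibroblasts. On the same scale the 142 genes stood at 52.0% to 62.7% in IFPS, 28.6% to 46.0% in wildtype and 18.1% to 23% in IF and PS. Between 2 and 10 of the 107 identifiers were at 0 counts in a fibroblast library, and 95 of them had a higher mean in IFPS than in IF and PS. The share of all expressed genes was not counted for this comparison. Against wildtype, 62.5% of expressed genes were higher in IFPS, 43.3% in IF and 38.0% in PS fibroblasts, so IFPS was the higher side in general. The part of MEC-specific RNA in the differences of the 142 genes was not tested. The 11 identifiers enriched in wildtype fibroblasts by the same limits summed to 1145 to 1238 CPM in IFPS, below the 1341 to 1791 CPM of the other fibroblasts. They were chosen as high in wildtype fibroblasts, so the wildtype side again follows in part from the choice.

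In MECs, IFPS again lay above IF and PS in most of the 142 genes, at a smaller size. The rule looked at MECs only through an overlap of the 6 IF and PS with the 6 wildtype and IFPS libraries, and these values are given as a description. The IFPS mean was above that of IF and PS in 137 of the 142 genes (96.5%), against 51.1% of all expressed genes, with a median log2 difference of 0.25 on the log2(CPM + 1) scale. All 3 IFPS libraries were above all 6 IF and PS libraries in 46 of the 142, where 3.82% of the 11298 genes met this. The sum of the 142 genes was 7150, 6312 and 7577 CPM in wildtype MECs, 7384, 7769 and 7347 CPM in IFPS, 5546, 6022 and 6126 CPM in IF and 7251, 6341 and 6955 CPM in PS. The IF libraries lay below all others, and PS overlapped wildtype. Line by line, 136 of the 142 genes were below wildtype in the mean of IF MECs (95.8%, median log2 -0.25), against 42.8% of expressed genes. In PS MECs 92 were below wildtype (64.8%, median -0.04), against 43.3%, and in IFPS MECs 18 were (12.7%, median 0.11), against 40.4%. Across the 142 genes the Spearman correlation of the IFPS difference in MECs with that in fibroblasts was 0.39, and it was 0.30 across all 11298 expressed genes. Genes are not independent replicates, and the libraries of both cell types share their title numbers.

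The rank of a library within its line was compared between fibroblasts and MECs of one title number. Wildtype replicate 3 was the highest wildtype library in 138 of the 142 genes in fibroblasts and in 120 (84.5%) in MECs, where 33.4% of all expressed genes had it highest. In IFPS, replicate 2 was the highest in 83 genes in fibroblasts (58.5%, against 42.0% of expressed genes) and in 96 in MECs (67.6%, against 34.3%). In IF, replicate 2 was the highest in 88 (62.0%, against 33.3%) and 77 genes (54.2%, against 27.3%). In PS, replicate 1 was the highest in 71 (50.0%, against 34.1%) and 103 genes (72.5%, against 38.4%). PS replicate 2 was the lowest in 100 (70.4%, against 40.9%) and 111 genes (78.2%, against 37.5%). Gene by gene, the same number was highest in both cell types for 121 of the 142 genes in wildtype (85.2%, against 41.6% of all expressed genes), 63 in IFPS (44.4%, against 38.9%), 57 in IF (40.1%, against 40.1%) and 72 in PS (50.7%, against 42.7%). For the lowest library the same number held in 33 genes in wildtype (23.2%, against 38.6%), 68 in IFPS (47.9%, against 38.4%), 35 in IF (24.6%, against 40.1%) and 85 in PS (59.9%, against 42.7%). IF replicate 3, for example, was the lowest in 119 genes in fibroblasts (83.8%, against 42.4%) and in 31 in MECs (21.8%, against 39.4%). The same-number shares are given with no test. They lay above those of all genes at both ends in IFPS and PS, at the upper end alone in wildtype, and at neither end in IF. Of the 12 numbers, 8 had their fibroblast and MEC sums on the same side of the mean of their line.

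**Figure D3:**
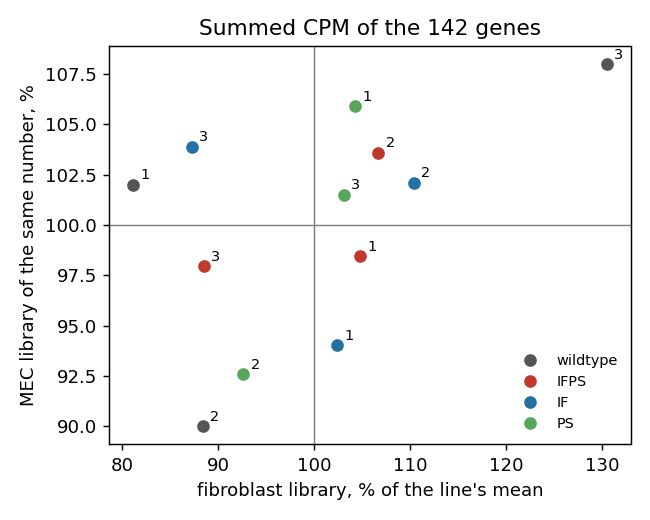
Summed CPM of the 142 genes in each fibroblast library (horizontal axis) and in the MEC library of the same title number (vertical axis), each as a percentage of the mean of its line and cell type; points are numbered by replicate and colored by line. Wildtype replicate 3 is farthest to the upper right, at 130.5% in fibroblasts and 108.0% in MECs, and 8 of the 12 points lie on the lower left or the upper right.

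In adipocytes, which the rule did not use, most of the genes that changed between IFPS and IF went the other way. Of the 142 genes 134 passed the low-count filter, and with edgeR 66 of these (49.3%) were lower and 8 (5.97%) were higher in IFPS than in IF. Over all 14304 genes tested 28.3% were lower and 24.6% higher. The median log2 difference was -0.74 for the 134 genes and 0.00 over all genes. Of the 7 reverse genes that passed the filter 2 were higher and 2 lower. Without overlap of the 3 IFPS and 3 IF libraries, 55 of the 142 (38.7%) were below IF in IFPS adipocytes, 17 (12%) were above and 70 were neither. All 142 were above IF in IFPS fibroblasts by selection. Among expressed genes 7.13% were above IF in fibroblasts and below it in adipocytes, and 14.5% were above it in both. Those shares also require the fibroblast side, so they are no like background for the 142. The share of expressed genes for adipocytes alone was not counted.

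The 66 genes were called lower in IFPS than in IF on these same adipocyte libraries. Their higher IF and lower IFPS levels follow from that choice and are given as a description. The genes were also scarce in wildtype and PS adipocytes, which the call did not compare. Their median level was 1.04, 1.27 and 1.36 CPM in wildtype, 0.791, 0.882 and 0.966 CPM in IFPS, 0.820, 0.923 and 0.694 CPM in PS and 4.88, 1.40 and 4.98 CPM in IF adipocytes. IF replicate 2 lay just above wildtype, and the other 2 IF libraries held more than 3 times the level of any other line. These 66 genes also had a median fold of 3.47 in fibroblasts and a median of 43.9 CPM in wildtype MECs, compared with 2.65 and 28.4 CPM for the 60 genes that were not called. Without IF replicate 2, 81 of 142 genes tested were called lower (57.0%, against 32.4% of all genes), and without IF replicate 1, 45 of 134 were (33.6%, against 24.1%). Across the 142 genes the Spearman correlation of the difference of IFPS from IF and PS in adipocytes with that in fibroblasts was -0.61, against 0.06 across all expressed genes.

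ENSRNOG00000028137 held 2.92, 3.73 and 1.84 CPM in IFPS adipocytes and 20.5, 5.86 and 18.9 CPM in IF adipocytes. Its log2 difference was -2.43 ± 0.42 (SE) with an edgeR adjusted p of 0.000928, the opposite direction to its order in fibroblasts. ENSRNOG00000003741 was an exception to the low adipocyte levels, with 86.0, 98.2 and 93.0 CPM in wildtype and 158.4, 81.3 and 94.7 CPM in IFPS adipocytes. In IF adipocytes it held 6.68, 66.6 and 8.81 CPM, and its log2 difference of 1.95 ± 0.74 (SE) had an adjusted p of 0.0458, which 12 of 16 alternatives moved above the threshold, up to 0.134. ENSRNOG00000033527 held 0.550, 1.80 and 0.515 CPM in IFPS adipocytes and 11.3, 8.69 and 5.83 CPM in IF adipocytes, a log2 difference of -3.20 ± 0.50 (SE) with an adjusted p of 0.000509. This gene was lower in IFPS than in IF in both cell types. ENSRNOG00000002831 did not pass the low-count filter in adipocytes.

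**Figure D4:**
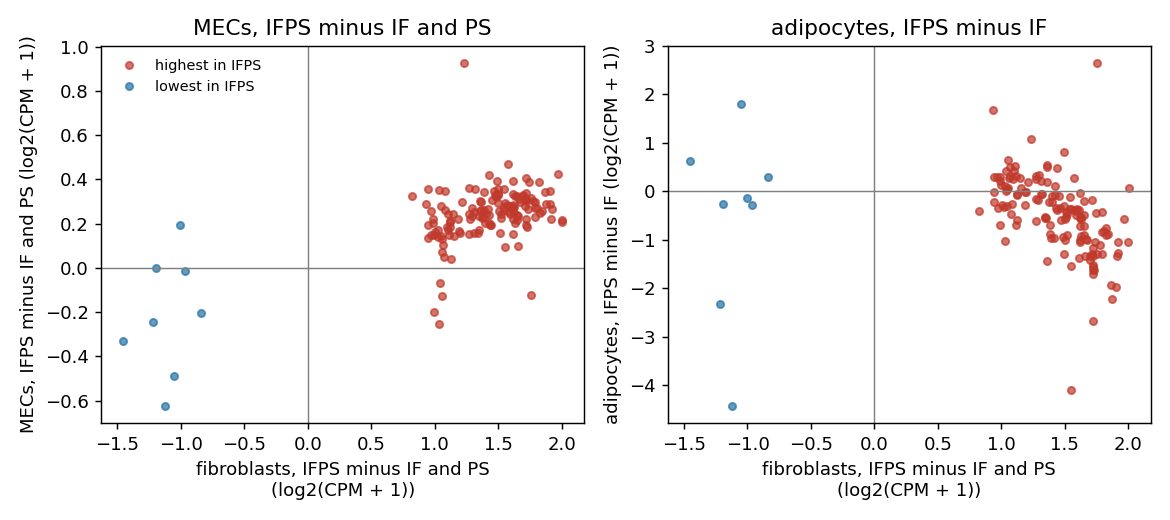
Difference of IFPS from the mean of IF and PS in fibroblasts (horizontal axes) against the same difference in MECs (left) and the difference of IFPS from IF in adipocytes (right), in log2(CPM + 1), 1 point per selected gene. In MECs 137 of the 142 genes highest in IFPS fibroblasts lie above 0, and in adipocytes 106 of the 142 lie below 0.

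Between IFPS and PS adipocytes, none of the 141 genes tested passed with edgeR, where 4 of 14304 genes did (0.028%). At an unadjusted p under 0.05 there were 6 of the 141 (4.26%), against 5.82% of all genes, and DESeq2 called 1 of the 150 and 90 genes in all. The median log2 difference of the 134 genes was -0.01. In the sum of the 142 genes, PS adipocytes held 1010 to 1195 CPM, IFPS 1032 to 1131 CPM, wildtype 1048 to 1145 CPM and IF 941 to 1281 CPM, so all lines overlapped.

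In whole pads, which mix fat, stroma and epithelium, no difference of the 150 genes between IFPS and IF and PS was detectable. In bulk tissue such as pads and tumors, fewer cells of a type and less RNA per cell cannot be told apart. None of the 150 genes and none of the 16384 genes tested (0.0%) passed edgeR's test, with 3 of the 150 (2.0%) at an unadjusted p under 0.05, against 6.93% of all genes, and 0 of the 150 among 89 genes called by DESeq2. The median log2 difference of the 142 genes was -0.08, with IF and PS weighted equally. The IFPS mean was above the mean of the pooled IF and PS libraries in 23 of the 142 (16.2%), against 59.0% of expressed genes. That pooled mean holds 6 PS and 3 IF pads, so PS, the line with the highest levels, weighs more in it. The sum of the 142 genes had a median of 3210 CPM in wildtype pads (2442 to 3512), 3753 CPM in IFPS (2751 to 3954), 3638 CPM in IF (2724 to 3678) and 3963 CPM in PS (3222 to 5111). The ranges overlapped. In all 3 mutated lines most of the 142 genes had a pad mean above wildtype: 138 in PS (97.2%, against 71.3% of expressed genes), 136 in IFPS (95.8%, against 71.8%) and 125 in IF (88.0%, against 59.2%). The median log2 difference from wildtype was 0.361 in PS, 0.209 in IFPS and 0.095 in IF pads, so IFPS lay between PS and IF. These means were not adjusted for the set of title numbers. All 3 IF pads had numbers up to 12, whereas the other lines also had pads numbered 13 to 21. Wildtype sums were 3102, 3511 and 3317 CPM in the first set and 2442, 2936 and 3512 CPM in the second. The part of the set in the IF difference was not tested. Over the 21 pads the sum of the 142 genes had a Spearman correlation of 0.55 with the sum of the other 106 MEC-enriched identifiers and of -0.49 with that of the 137 adipocyte-enriched identifiers. These sums come from the same libraries, and the part of tissue composition was not tested.

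In tumors the spread within each line was wider than the distance between the medians of the lines. The sum of the 142 genes ran from 1257 to 7571 CPM with a median of 4064 in IFPS, from 1757 to 7994 CPM with a median of 4548 in PS, and from 2293 to 4519 CPM with a median of 4111 in IF tumors. Between IFPS and PS tumors 0 of the 150 genes and 0 of 15966 genes (0.0%) passed edgeR's test, with 6 of the 150 (4.0%) at an unadjusted p under 0.05, against 22.2% of all genes tested. DESeq2 called 1 of the 150 and 1198 genes in all. Leaving out 1 of 5 IFPS tumors (replicate 1, 2, 3, 4 or 7) brought 591 to 756 genes over the threshold, 1 of them among the 150. Between IFPS and IF tumors 2 of the 150 passed, against 4.25% of genes: ENSRNOG00000033527 and 1 of the 142, both lower in IFPS. ENSRNOG00000033527 had a median of 5.75 CPM in IFPS (1.30 to 29.7) and 55.8 CPM in IF tumors (1.91 to 89.5). The ranges overlapped, and the log2 difference was -2.65 ± 0.69 (SE) with an edgeR adjusted p of 0.0327, which lay above the threshold in 6 of 27 alternatives, up to 0.0961. Across the 23 tumors the sum of the 142 genes had a Spearman correlation of -0.73 with that of the adipocyte-enriched identifiers, which ran from 2326 to 82760 CPM, and the correlation with the 106 MEC-enriched identifiers was 0.18. The part of tumor composition was not tested.

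**Figure D5:**
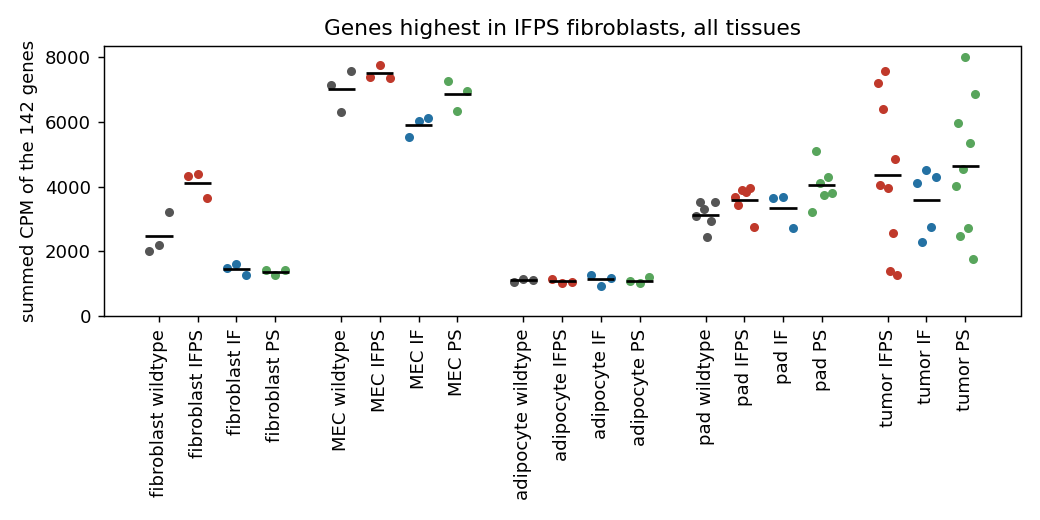
Summed CPM of the 142 genes in every library (points, vertical axis) by tissue and line, with the group mean as a black line. In fibroblasts the IFPS libraries (3647 to 4398 CPM) lie above wildtype and the IF and PS libraries below it, whereas adipocyte groups overlap between 941 and 1281 CPM and tumors range from 1257 to 7994 CPM.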

How the data were processed

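RNA sequencing of 80 rat libraries in 19 groups was analysed. The authors deposited 1 table of raw counts, whole numbers of reads per Ensembl gene identifier. The submitters' processing notes name Trim Galore, STAR 2.5.2b and the build Rnor_6.0, while the counting tool, annotation and strand setting are not given in the sources used here. Columns were matched to libraries by title, and groups were taken from the genotype and tissue labels. CPM here is the count divided by the library's total count. Of the 32883 identifiers 6365 had no count, and 0 matched a symbol among 47357 reference genes, so 33 gene and marker lists were not analysed.

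The 150 genes, the lists and the tests were chosen with earlier results of these data known. The rule for named genes asked for symbols and gave no name, so the 2 identifiers in each direction with the largest fold and with the highest mean CPM are printed, a choice made after their values were seen. The sets of enriched identifiers were also chosen afterwards.

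Tests used edgeR 4.0.16 in R 4.3.3 (quasi-likelihood, TMM, filterByExpr, Benjamini-Hochberg adjustment over all genes tested, threshold 0.05). Fibroblasts, adipocytes, pads and tumors each had 1 fit over all their lines, with the set of title numbers as a covariate in pads. Wildtype fibroblasts and wildtype MECs, 3 libraries each, were compared in a separate fit with no term for the title number. The fits were also run on simulated counts, and no recovery or error rate from that run is given here. The SE of a log2 difference was derived from its F statistic. Alternatives were RLE size factors, no filter, DESeq2 1.42.0, only the groups compared, a replicate block, each library left out and, added after the data were seen, fibroblast counts thinned to one total.

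Whether title numbers pair fibroblasts with MECs was checked by the correlation of deviations from group means over 11148 expressed genes outside the 150. It was 0.173 to 0.363 in the 12 same-numbered pairs, and each of the 12 fibroblast libraries correlated best with its own number, so the numbers were taken to pair these libraries. The pairing comes from this check, since the labels do not say what a number marks. Depth ran from 17.3e6 to 37.3e6 counts per library, and counts of a few reads, as in genes under 1 CPM, carry a large counting error.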

Additional observations from a re-analysis of the deposited data

Results flagged for a closer look

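Of the 142 genes highest in IFPS fibroblasts, 55 were above IF in all 3 IFPS fibroblast libraries and below IF in all 3 IFPS adipocyte libraries (38.7%), against 7.13% of expressed genes. The fibroblast side was set by the selection, 17 of the 142 were above IF in both cell types and 70 did neither. The difference between the cell types was not tested.

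Of 36 groups of 4 to 10 libraries (2 sums and 4 genes) examined for a library that stands apart, 3 had one, where chance gives about 1 in 20. The sum of the 8 genes lowest in IFPS was 836.2 CPM in IFPS tumor replicate 6, 452.4 CPM above the next IFPS tumor. ENSRNOG00000033527 held 29.7 CPM in 1 IFPS tumor, 14.7 CPM above the next. ENSRNOG00000033527 also held 8.74 CPM in 1 PS pad, 4.401 CPM above the next PS pad.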

How the results depend on the processing

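The rule gave 240 genes at 1.5-fold and 83 at 3-fold in place of 150. Leaving out 1 fibroblast library gave 146 to 249 genes, with the 249 without wildtype replicate 3. On TMM-scaled CPM it gave 141 genes (128 highest and 13 lowest in IFPS), 133 of them shared with the 150, and after thinning 152 genes, 142 of them shared. For PS against IF in fibroblasts, 0 of the 150 genes were called, 1 without the filter, 3 from only the groups compared, 4 with DESeq2, and 0 to 3 with 1 library left out. For IFPS against PS, DESeq2 called 1 of the 150 in adipocytes and 1 in tumors, where edgeR called 0, and leaving out 1 library gave 0 to 1 in each. DESeq2 called 1198 genes in all between IFPS and PS tumors and 89 between IFPS and the other pads, against 0 with edgeR. For IFPS against IF tumors 2 of the 150 were called, 4 with DESeq2, 0 from only the groups compared and 1 to 4 with 1 library left out. For IFPS against IF adipocytes 78 of 141 were called, and 54 to 96 with 1 library left out, the 96 without IF replicate 2. With the replicate block, 143 of the 150 genes differed between wildtype fibroblasts and MECs in place of 140, and 125 to 142 did with 1 library left out.

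Gene names, the alleles of the lines and the level of Nf1 were not analysed here, and no role was assigned to any of the genes. Groups of 3 libraries and genes of a few CPM limit what can be detected, and the cell culture of fibroblasts and MECs cannot be told apart from their cell type in comparisons with adipocytes.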
